A study of Solanum lycopersicum with 21 samples.

Results

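The transcripts described here are the 30 probe sets, of 67795 on the array, that the readable sheets of the study's list of changed transcripts name as a receptor-like kinase, receptor-like protein kinase, receptor kinase or receptor-like serine/threonine kinase. The study treated tomato plants with the peptides BP178 and flg15 and with 3 defense hormones, ethylene, salicylic acid (SA) and jasmonic acid (JA). The sheets for BP178 and flg15 could be read whole (112 and 191 probe sets), that for SA over its first 573 rows, and those for JA and ethylene were not used here. Members were thus chosen by their own measured change after these treatments. Of the 30, 20 were listed for flg15, 13 for SA and 2 for BP178. The flg15 sheet alone gave 16 members and the SA sheet alone 10. Of the remaining 4, Solyc10g052880 and Solyc10g076550 were listed for flg15 and SA, Solyc12g005720 for BP178 and flg15, and Solyc10g045610 in all 3 sheets. Only changed transcripts stand in these sheets, so a higher value after the treatment that listed a member is a description and was not tested. Another 3 listed probe sets carry receptor-like words that fall outside the wording used and were left out.

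Receptor-like kinases are proteins of the plasma membrane with an extracellular part that binds a ligand and a cytoplasmic kinase that passes the signal on. Plants use them to sense fragments of microbes and of their own damaged walls. The extracellular part names the family. Leucine-rich repeats (LRR) often bind peptides, lysM domains bind chitin and related sugars, lectin domains resemble sugar-binding proteins, and wall-associated kinases bind pectin. In Arabidopsis FLS2 is the LRR kinase that recognises bacterial flagellin, and SOBIR1 is an LRR kinase that serves receptor-like proteins lacking a kinase of their own.

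Leaves of tomato cv. Rio Grande were collected at 24 h after treatment, and each array held the RNA of 10 pooled plants. In experiment 1 plants received BP178, a synthetic antimicrobial peptide, at 125 µM, SA at 2.5 mM, JA at 2.5 mM, ethylene released by ethephon at 1 mM with phosphate buffer at 2.5 mM, or water as the non-treated control (NTC). In experiment 2 plants received flg15, a short flagellin peptide, at 125 µM, or water. Each of these 7 groups had 3 arrays, 21 in all, and tests against NTC used that of the same experiment, so that BP178, SA, JA and ethylene share the same 3 NTC arrays. For ethylene a sealed chamber is described in the methods and spraying in the labels, with no enclosed control in either, so an effect of the chamber cannot be told apart from that of ethylene. Experiment and peptide likewise cannot be told apart between BP178 and flg15.

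Values are log2 intensities after RMA, a summary of the probes of each transcript, and are set against each other only within a probe set. A member is called higher at a fold change (FC) of at least 2, or lower at an FC of at most 0.5, with an adjusted p below 0.05 from limma over all probe sets. Array medians lay between 2.63 and 2.85, and 12 members averaged below 2.85 in the NTC of both experiments, so the size of their changes is uncertain. None of the 30 averaged below that level in all 7 groups. In whole-leaf RNA, a change in the cells of one type and a change of RNA per cell cannot be told apart. Both leaf markers with a symbol on the array (the Rubisco small subunit gene RBCS-1 and CAB4) averaged between 11.26 and 12.54 in every group. Of the 4 matched fruit markers PG2, E8-6 and 2A11 averaged below 2.2 in every group. Psy1, a fruit phytoene synthase, did not follow them and averaged between 6.71 and 8.33, above every array median. The reason was not tested.

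By annotation the members comprise 12 LRR kinases, 6 annotated to a wall-associated kinase or to the Arabidopsis loci At1g18390, At1g67000 or At3g21340, 5 cysteine-rich, 3 lectin and 2 lysM kinases, and 2 others. Of the 6, only Solyc10g076540 is named as a wall-associated kinase. The name receptor-like kinase did not always hold. For 7 members no kinase term stands in the domain annotation, and 2 of these 7, Solyc09g057960 and Solyc12g005720, are called cysteine-rich repeat secretory proteins in RefSeq's words. These 2 are therefore called cysteine-rich members below. Solyc04g014400 is annotated as FLS2-like and also as a receptor-like protein (RLP), and it too lacks a kinase term. The rest of the 7 are Solyc02g067770, Solyc09g083200, Solyc10g076540 and Solyc11g007400. Members Solyc02g067770 and Solyc02g067780 have consecutive identifiers, as do Solyc10g076540 and Solyc10g076550, and signal shared between similar copies was not tested.

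**Figure D1:**
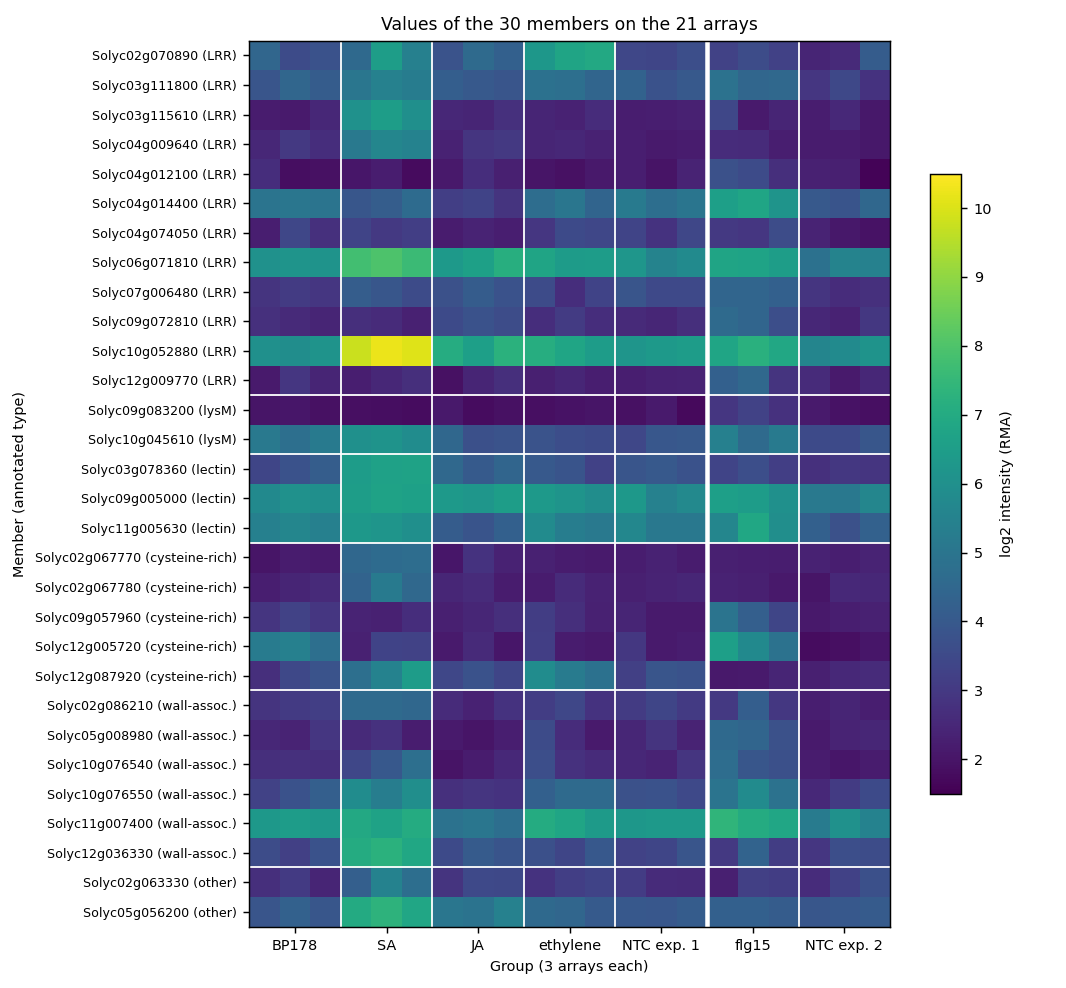
Log2 intensity (colour) of the 30 members in rows, by annotated type, on the 21 arrays in columns, 3 arrays per group. The broad white line divides experiment 1 from experiment 2. The brightest member is Solyc10g052880 after SA, at 9.77 to 10.25, and 12 members are dark, below 2.85 on average, in both NTC groups.

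The first question was whether members listed for flg15 also moved after the treatments of experiment 1, whose arrays had no part in that listing. After SA, 7 of these 20 members were higher and 0 lower, beside 2.26% of all probe sets higher and 2.12% lower. Among the 23194 probe sets with 1 gene symbol, 5.32% were higher after SA. Of the 7, Solyc10g045610, Solyc10g052880 and Solyc10g076550 were also listed for SA, so their change after SA is a description. The median log2 FC after SA was 0.55 over the 20 and 0.23 over the 16 listed for flg15 alone, against 0.01 over all probe sets. Those 16 are by that choice absent from the SA rows that could be read, where no member had a log2 FC below 1.99. Their median is thus limited from above by the SA values and is a description. The other 4 of the 7, also absent from those rows, rose. They were both SOBIR1-like kinases, the At1g67000-like Solyc02g086210 and Solyc10g076540, annotated as wall-associated receptor kinase 2.

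The SOBIR1-like Solyc06g071810 had log2 intensities of 7.78, 8.00 and 7.65 in SA plants, against 6.22, 5.53 and 5.81 in NTC. It rose by a log2 FC of 1.95 ± 0.21 (SE, adjusted p = 8.3e-07, limma). The second SOBIR1-like gene, Solyc03g111800, had 5.04, 5.47 and 5.26 in SA plants, against 4.33, 3.75 and 4.01 in NTC, a log2 FC of 1.23 ± 0.20 (adjusted p = 0.00017). In both genes all 3 SA arrays stood above all 3 NTC arrays. Solyc02g086210, annotated At1g67000-like, had 4.62, 4.61 and 4.50 in SA plants, against 3.08, 3.39 and 3.04 in NTC, a log2 FC of 1.41 ± 0.24 (adjusted p = 0.00027). Solyc10g076540, annotated as wall-associated receptor kinase 2, had 3.43, 3.97 and 4.79 in SA plants, against 2.50, 2.41 and 2.87 in NTC. Its SA arrays spread widely but did not overlap with NTC, and its log2 FC was 1.47 ± 0.31 (adjusted p = 0.0022). Of the 13 members listed for flg15 that were not called after SA, the FLS2-like RLP Solyc04g014400 had the lowest log2 FC, −0.77 ± 0.22 (adjusted p = 0.023), short of the fold threshold.

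After JA, 1 of the 20 was higher and 3 were lower, beside 1.64% of all probe sets higher and 1.7% lower. Among probe sets with 1 gene symbol 3.9% were higher and 4.04% lower. The median log2 FC was −0.003, against 0.02 over all probe sets. The 3 that fell were all listed for flg15 alone. Solyc04g014400 had log2 intensities of 3.18, 3.32 and 2.86 in JA plants, against 5.21, 4.77 and 5.01 in NTC, and fell by 1.88 ± 0.22 on the log2 scale (adjusted p = 4.5e-06). The At1g67000-like Solyc11g007400 had 4.88, 5.03 and 4.75 in JA plants, against 6.25, 6.34 and 6.32 in NTC, and fell by 1.42 ± 0.19 (adjusted p = 2.9e-05). The G-type lectin kinase Solyc11g005630 had 4.11, 3.83 and 4.26 in JA plants, against 5.65, 5.09 and 5.11 in NTC, and fell by 1.22 ± 0.25 (adjusted p = 0.003). No JA array of these 3 genes reached the lowest NTC array of experiment 1. With both NTC groups together the call of Solyc11g005630 was lost (log2 FC −0.62, adjusted p = 0.31). The member that rose was Solyc09g072810, an LRR kinase annotated At4g08850-like, with 3.54, 3.77 and 3.58 in JA plants, against 2.58, 2.48 and 2.72 in NTC. Its log2 FC of 1.04 ± 0.21 (adjusted p = 0.0018) lay just past the fold threshold, and the call was lost without replicate 2 of either JA or NTC.

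After flg15 the same 3 genes had been listed with higher values. In flg15 plants Solyc04g014400 had log2 intensities of 6.57, 6.78 and 6.16, against 4.03, 3.84 and 4.49 in the NTC of experiment 2. Solyc11g007400 had 7.39, 7.02 and 6.84 in flg15 plants, against 5.24, 6.07 and 5.48 in NTC. For Solyc11g005630 the values were 5.62, 6.85 and 5.96 in flg15 plants, against 4.25, 3.73 and 4.30 in NTC. The flg15 arrays stood above the NTC of experiment 2 in all 3 genes, the direction that the listing fixed. The JA arrays stood below the NTC of experiment 1, a different control. For Solyc04g014400 and Solyc11g007400 no JA array reached the lowest NTC array of either experiment. For Solyc11g005630 the contrast depends on the control. Its JA arrays averaged 4.07, level with its NTC of experiment 2 at 4.09, and its flg15 arrays overlapped with the NTC of experiment 1.

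After ethylene, 0 of the 20 were called in either direction by limma, beside 1.18% of all probe sets higher and 0.667% lower. At an unadjusted p under 0.05, 5 were higher and 1 lower, and no other tool was run. How many of all probe sets reach that p was not counted, so these counts are descriptions. The median log2 FC of the 20 was 0.18, against −0.02 over all probe sets. The SOBIR1-like pair had log2 FC of 0.70 ± 0.21 (Solyc06g071810, adjusted p = 0.06) and 0.65 ± 0.20 (Solyc03g111800, adjusted p = 0.071) in ethylene plants. All 3 ethylene arrays lay above NTC in each, but the share of all probe sets that did so was not counted.

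After BP178, 2 of the 20 were higher and 0 lower, beside 0.124% of all probe sets higher and 0.0133% lower. The median log2 FC of the 20 was 0.08, against −0.01 over all probe sets. Both are the members that the BP178 sheet itself lists, so their values are descriptions. The cysteine-rich Solyc12g005720 had log2 intensities of 5.25, 5.42 and 4.77 in BP178 plants, against 2.97, 2.14 and 2.23 in NTC, an FC of 6.5. In flg15 plants it had 6.57, 5.76 and 4.90, against 1.80, 1.86 and 2.05 in NTC, an FC of 14.4. Both peptide groups stood far above their NTC, while the log2 FC was 0.52 after SA, −0.19 after JA and 0.04 after ethylene. The lysM kinase Solyc10g045610, annotated as lysM domain receptor-like kinase 4-like, had 5.13, 4.79 and 5.17 in BP178 plants, against 3.41, 3.95 and 4.02 in NTC. It had 5.43, 4.62 and 5.16 in flg15 plants, against 3.53, 3.53 and 3.92 in NTC, and 6.02, 6.11 and 5.89 in SA plants. All arrays of the 3 treatments lay above those of their NTC, by log2 FC of 1.24, 1.41 and 2.21. In JA plants it had 4.50, 3.70 and 3.80 and in ethylene plants 3.81, 3.64 and 3.54, within or overlapping the range of NTC. Its call after BP178 was lost without replicate 1 or 3 of BP178 or replicate 1 or 2 of NTC, which left 1 member higher after BP178.

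The 16 members listed for flg15 alone are by that choice absent from the BP178 sheet, so their lack of a call after BP178 is a description. The largest of their log2 FC after BP178 was 0.77 ± 0.27 for the cysteine-rich Solyc09g057960, which had log2 intensities of 2.90, 3.26 and 2.91 in BP178 plants, against 2.43, 2.16 and 2.16 in NTC. The lowest was −0.66 ± 0.19 for Solyc07g006480, an LRR kinase annotated as probably inactive, with 2.86, 3.06 and 2.94 in BP178 plants, against 3.88, 3.49 and 3.47 in NTC. In both genes the BP178 and NTC arrays did not overlap, and both log2 FC stayed short of the fold threshold. The share of all probe sets without overlap between BP178 and NTC was not counted, so this is a description.

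**Figure D2:**
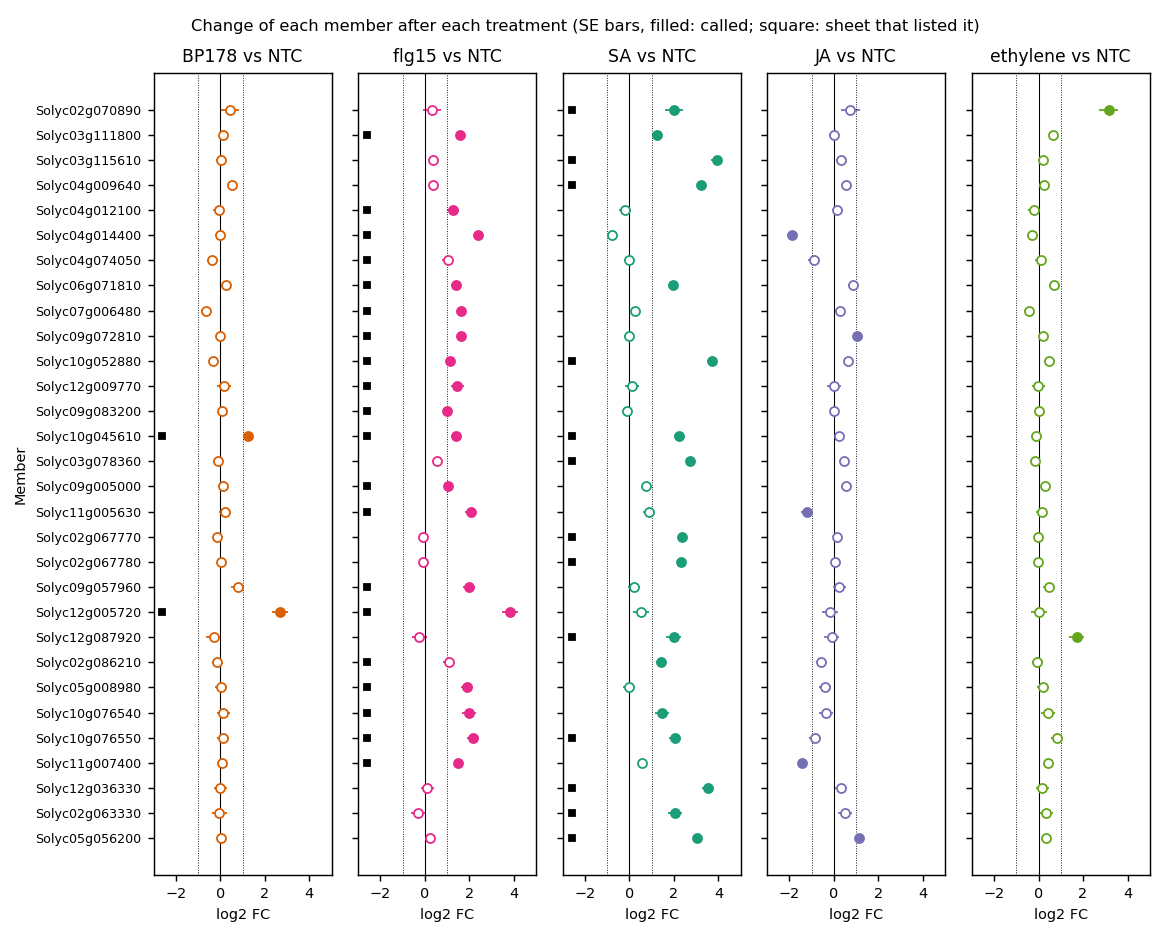
Log2 FC (horizontal axis, with SE) of each member (rows) after BP178, flg15, SA, JA and ethylene against the NTC of the same experiment, in 5 panels. Filled points passed both thresholds, dotted lines mark the fold threshold, and a black square marks the sheet that listed the member. After JA 3 members listed for flg15 stand left of the threshold, and after BP178 the 2 filled points carry the square.

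Members listed for SA were then followed after flg15, whose arrays had no part in the SA sheet. Of these 13, 3 were higher and 0 lower after flg15, beside 0.218% of all probe sets higher and 0.0384% lower. The same 3 were also listed for flg15, so their values are descriptions, and with each experiment fitted alone 1 of the 13 was higher. They are the lysM kinase described above, the LRR member Solyc10g052880 and Solyc10g076550, annotated to At3g21340. The 10 members listed for SA alone are by that choice absent from the flg15 sheet, and their lack of a call after flg15 was not read as a result. The highest of them after flg15 was the G-type lectin kinase Solyc03g078360, with log2 intensities of 3.34, 3.67 and 3.18 in flg15 plants, against 2.74, 2.96 and 2.90 in NTC (log2 FC 0.53 ± 0.20).

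Solyc10g052880, annotated as a probably inactive LRR kinase, had log2 intensities of 9.77, 10.25 and 10.07 in SA plants, against 6.19, 6.35 and 6.47 in NTC, an FC of 12.9. In flg15 plants it had 6.78, 7.22 and 6.90, against 5.58, 5.80 and 6.12 in NTC, a log2 FC of 1.13. Its arrays did not overlap with NTC in either case. Solyc10g076550 had 4.95, 5.84 and 4.88 in flg15 plants, against 2.52, 3.07 and 3.53 in NTC, and 5.86, 5.32 and 5.94 in SA plants, against 3.73, 3.75 and 3.50 in NTC. Its log2 FC was 2.18 after flg15 and 2.05 after SA, and neither treatment overlapped with its NTC.

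The 10 members listed for SA alone had log2 FC between 1.99 and 3.92 after SA, as the listing fixed. The LRR kinase Solyc03g115610, annotated At1g74360-like, had log2 intensities of 6.04, 6.50 and 5.99 in SA plants, against 2.22, 2.24 and 2.32 in NTC. Solyc12g036330, annotated At1g18390-like, had 7.05, 7.25 and 6.84 in SA plants, against 3.29, 3.39 and 3.87 in NTC. The LRR kinase Solyc04g009640, annotated At3g47570-like, had 5.13, 5.63 and 5.50 in SA plants, against 2.24, 2.15 and 2.17 in NTC. In each of these 3 the SA arrays stood far above NTC and did not overlap with it. The consecutive cysteine-rich members Solyc02g067770 and Solyc02g067780 had log2 FC of 2.37 and 2.31 after SA and between −0.14 and 0.14 after BP178, flg15, JA and ethylene. Solyc05g056200, a kinase with no further family name, had 6.99, 7.33 and 6.81 in SA plants and 5.02, 4.93 and 5.45 in JA plants, against 3.98, 3.96 and 4.11 in NTC. The remaining members of this kind, Solyc02g063330 (a proline-rich PERK2-like kinase), Solyc03g078360, Solyc12g087920 and the FLS2-like Solyc02g070890, had log2 FC after SA between 1.99 and 2.72.

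JA and ethylene were compared directly for all 30 members, since no sheet used here rests on those arrays. In JA plants 0 members were higher and 6 lower than in ethylene plants, beside 1.21% of all probe sets higher and 1.56% lower. Among probe sets with 1 gene symbol 3.63% were lower. At an unadjusted p under 0.05, 4 members were higher and 11 lower. The share of all probe sets at that p was not counted, so these counts are descriptions. The median log2 FC of the 30 was 0.02, against 0.04 over all probe sets. The 6 comprise both FLS2-like members, Solyc10g076550 (annotated to At3g21340), the At1g67000-like Solyc11g007400, 1 lectin kinase and 1 cysteine-rich kinase.

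The FLS2-like Solyc02g070890 had log2 intensities of 3.80, 4.62 and 4.25 in JA plants, against 6.25, 6.74 and 6.93 in ethylene plants. Its difference was the largest of the 6, a log2 FC of −2.42 ± 0.41 (adjusted p = 0.00057). In SA plants it had 4.57, 6.51 and 5.42 and in BP178 plants 4.46, 3.57 and 3.77, against 3.41, 3.37 and 3.68 in NTC. The 3 ethylene arrays lay above every NTC, BP178 and JA array, by a log2 FC of 3.15 over NTC, and the SA arrays spread from the level of JA to that of ethylene. The NTC arrays served in the listing for SA, so the change after ethylene is given without a test. After flg15 it had 3.27, 3.58 and 3.24, against 2.44, 2.59 and 4.10 in NTC, and these groups overlapped.

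Solyc12g087920, a cysteine-rich kinase, had log2 intensities of 3.40, 3.77 and 3.36 in JA plants, against 5.87, 5.24 and 4.85 in ethylene plants (log2 FC −1.81 ± 0.34, adjusted p = 0.0013). Solyc10g076550 had 2.76, 2.87 and 2.81 in JA plants, against 4.24, 4.60 and 4.61 in ethylene plants (log2 FC −1.67 ± 0.27, adjusted p = 0.00031). Neither gene was called after JA against NTC, where the log2 FC were −0.10 and −0.85. The other 3 were those that fell after JA. Solyc11g007400 had 7.02, 6.79 and 6.42 in ethylene plants and a log2 FC of −1.86 ± 0.19 for JA over ethylene (adjusted p = 1.3e-06). For Solyc04g014400 and Solyc11g005630 this log2 FC was −1.60 ± 0.22 (adjusted p = 4e-05) and −1.36 ± 0.25 (adjusted p = 0.0014). In all 6 genes no JA array reached the lowest ethylene array.

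For members listed for flg15, SA was compared directly with JA and with ethylene. In SA plants 10 of the 20 were higher and 1 lower than in JA plants, beside 2.06% of all probe sets higher and 1.71% lower. Among probe sets with 1 gene symbol 4.83% were higher. Of the 10, 3 were also listed for SA. The median log2 FC was 1.00 over the 20 and 0.64 over the 16 listed for flg15 alone, against −0.01 over all probe sets. The 16 are absent from the SA rows used, a choice that rests on the SA arrays, so their median is a description. The largest differences among the other 7 were 2.10 ± 0.25 for the lectin kinase Solyc11g005630 (adjusted p = 5.9e-06), 1.99 ± 0.19 for Solyc11g007400 (adjusted p = 2.4e-07) and 1.98 ± 0.24 for Solyc02g086210 (adjusted p = 5.2e-06) in log2 FC. Solyc11g005630 had log2 intensities of 6.31, 6.20 and 6.00 in SA plants, and Solyc11g007400 had 6.91, 6.69 and 7.03. Solyc02g086210 had 2.60, 2.36 and 2.83 in JA plants, below its SA arrays and also below its NTC arrays. The fourth, Solyc10g076540, had 1.97, 2.19 and 2.55 in JA plants (log2 FC 1.83 ± 0.31 for SA over JA, adjusted p = 0.00029). The member that was lower after SA than after JA was Solyc09g072810 (log2 FC −1.07 ± 0.21, adjusted p = 0.0012), and this call was lost without SA replicate 3.

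Against ethylene, 6 of the 20 were higher in SA plants and 0 lower, beside 2.07% of all probe sets higher and 2.55% lower. Among probe sets with 1 gene symbol 4.7% were higher. Again 3 of the 6 were also listed for SA. The median log2 FC was 0.47 over the 20 and 0.13 over the 16 listed for flg15 alone, against 0.03 over all probe sets. For the same reason the median of the 16 is a description. The others were Solyc02g086210 (log2 FC 1.47 ± 0.24, adjusted p = 0.00018), the SOBIR1-like Solyc06g071810 (1.26 ± 0.21, adjusted p = 0.00019) and Solyc10g076540 (1.04 ± 0.31, adjusted p = 0.029). The last had 3.67, 2.77 and 2.62 in ethylene plants, which overlapped with SA. Its call was lost without replicate 2 or 3 of SA or of ethylene, under quantile normalization and under median centring (adjusted p up to 0.19).

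**Figure D3:**
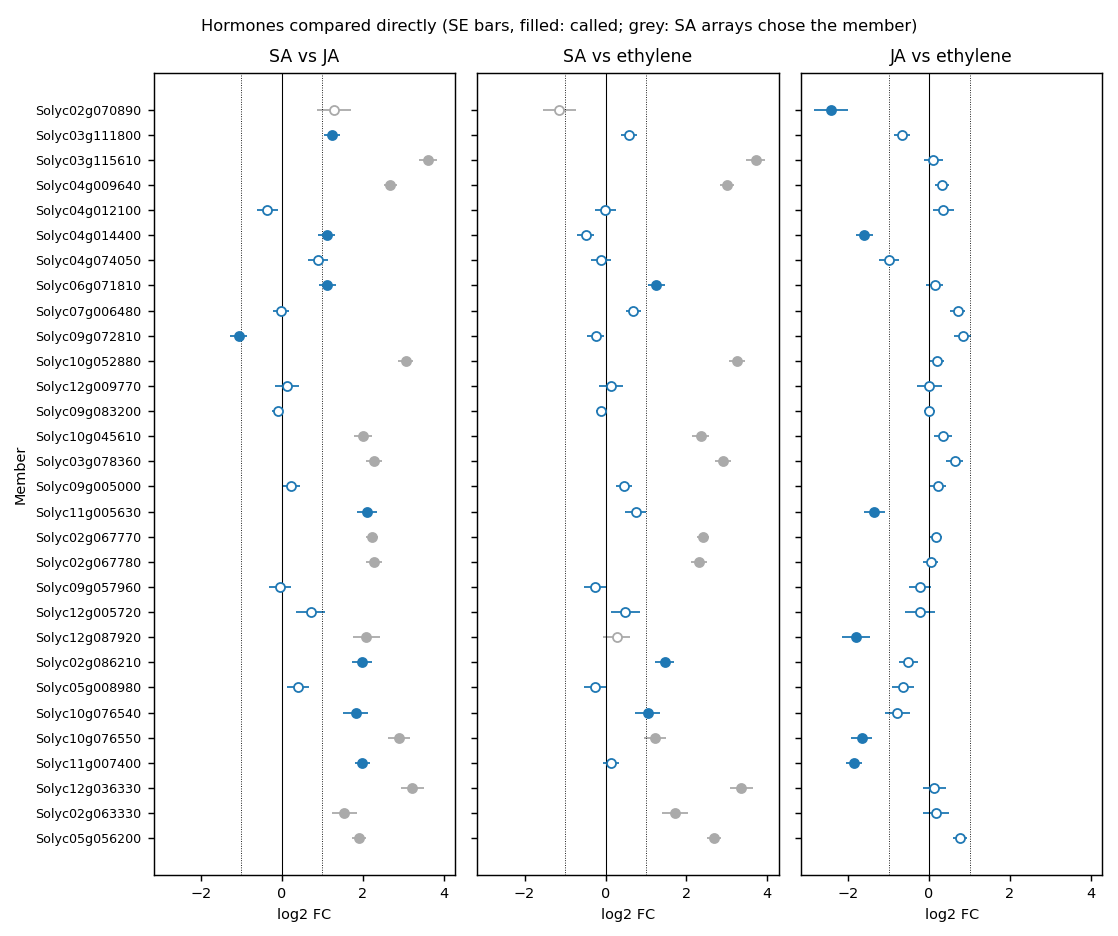
Log2 FC (horizontal axis, with SE) of each member (rows) for SA against JA, SA against ethylene and JA against ethylene. Filled points passed both thresholds, and grey points are members whose listing used the SA arrays. For JA against ethylene the 6 filled points all lie on the negative side, down to −2.42.

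**Figure D4:**
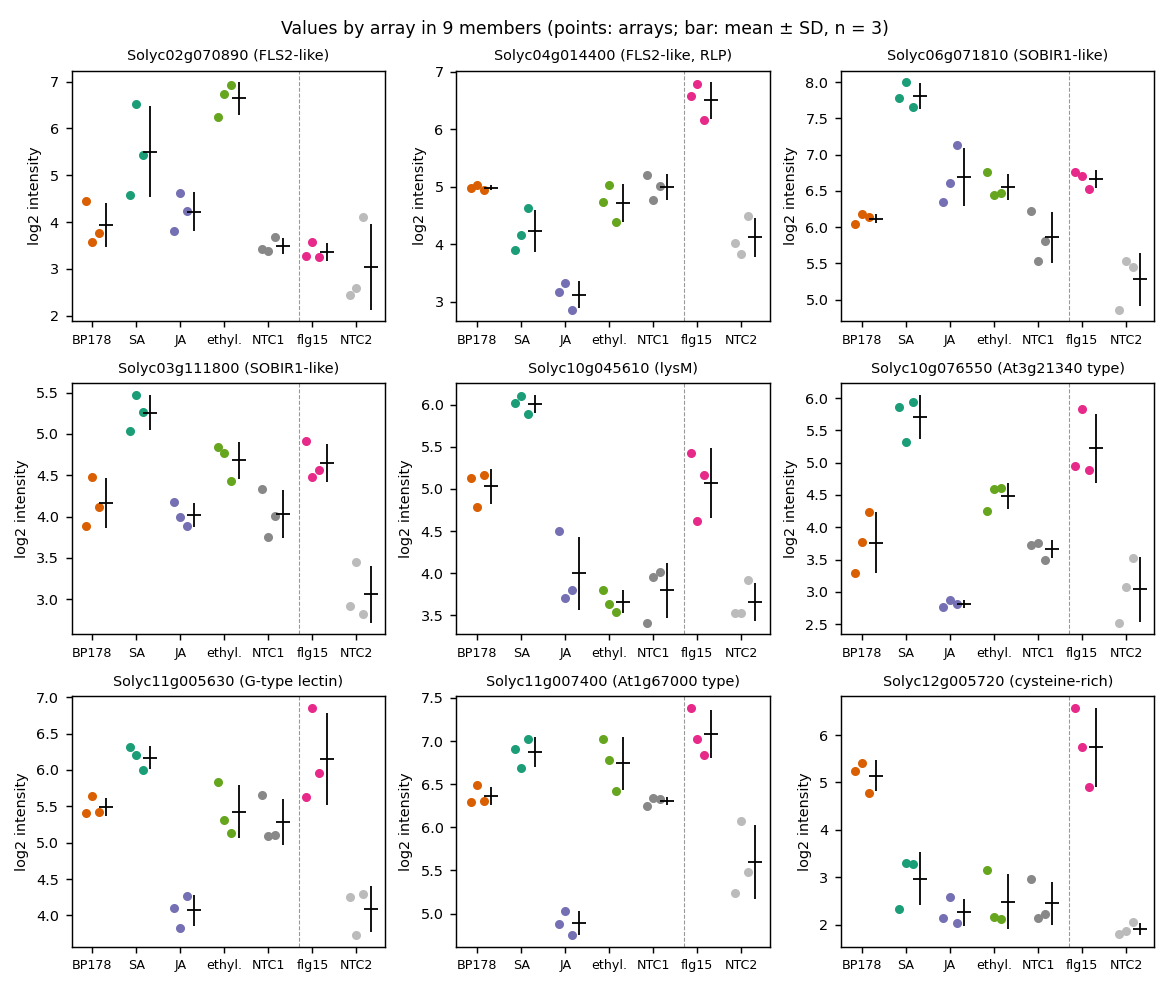
Log2 intensity (vertical axis) on each array in 9 members, with the mean and SD beside each group (n = 3), experiment 1 left of the dashed line and experiment 2 right of it. Solyc04g014400, Solyc11g005630 and Solyc11g007400 are lowest in JA plants within experiment 1, and Solyc02g070890 is highest in ethylene plants.

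The flg15 values themselves depend on the water control beside them. All 20 members listed for flg15 had their 3 flg15 arrays above the NTC of experiment 2, as the listing led to, where 7.58% of all probe sets did. Against the NTC of experiment 1 the flg15 arrays stood above all 3 NTC arrays in 16 of the 20, where 11.6% of all probe sets did. The listing used the same flg15 arrays, and experiment and peptide cannot be told apart here, so this count is a description too. The 4 others were Solyc02g086210, Solyc04g074050, Solyc09g005000 and Solyc11g005630. In 17 of the 20 the NTC of experiment 2 averaged below the NTC of experiment 1. The share of all probe sets with a lower average was not counted. The median difference was −0.54 on the log2 scale over the 20, against −0.002 over all probe sets. In 11 of the 20 the NTC arrays of experiment 2 all lay below those of experiment 1, where 9.74% of all probe sets did. A low NTC of experiment 2 favours a listing for flg15, so this was not tested.

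The members differed in how much this mattered. Solyc02g086210 had log2 intensities of 2.98, 4.19 and 2.98 in flg15 plants, against 2.26, 2.43 and 2.24 in the NTC of experiment 2 and 3.08, 3.39 and 3.04 in that of experiment 1. For this gene 2 of 3 flg15 arrays lay below the NTC of experiment 1. The LRR kinase Solyc04g074050, annotated At4g08850-like, had 2.99, 2.92 and 3.58 in flg15 plants, against 2.39, 2.08 and 1.93 in the NTC of experiment 2 and 3.33, 2.80 and 3.42 in that of experiment 1. These 2 genes were also the ones of the 20 that did not reach the adjusted p threshold after flg15 here, with log2 FC of 1.07 and 1.03. At the fold threshold itself stood the second lysM member, Solyc09g083200, with 2.92, 3.27 and 2.78 in flg15 plants, against 2.15, 1.94 and 1.87 in NTC, a log2 FC of 1.00. Outside flg15 its arrays lay between 1.73 and 2.15, below every array median. The nearest member not listed for flg15 was Solyc03g078360, at 0.53.

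In the SOBIR1-like pair the 2 control groups differed in the same way. Solyc03g111800 had 4.91, 4.48 and 4.56 in flg15 plants, against 2.91, 3.45 and 2.82 in the NTC of experiment 2, all below its 3 NTC arrays of experiment 1 given above. Solyc06g071810 had 6.76, 6.71 and 6.52 in flg15 plants, against 4.86, 5.53 and 5.45 in the NTC of experiment 2. Its flg15 arrays lay above every NTC array of both experiments, and so did those of Solyc03g111800.

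Several members listed for flg15 showed little signal elsewhere. The LRR member Solyc12g009770 had 4.24, 4.53 and 2.87 in flg15 plants, against 2.61, 2.15 and 2.50 in NTC, with a wide spread among the flg15 arrays. Solyc09g057960 had 4.97, 4.24 and 3.38, against 2.10, 2.24 and 2.33 in NTC. Solyc05g008980, annotated At1g18390-like, had 4.56, 4.42 and 3.73, against 2.17, 2.38 and 2.48 in NTC. None of these 3 was called after BP178, SA, JA or ethylene. The LRR kinase Solyc04g012100, annotated At3g47570-like, likewise was not called outside flg15, where its log2 FC was 1.27. These members were listed for flg15 alone and are by that choice absent from the BP178 sheet and the SA rows used. Their lack of a call after BP178 and SA is thus a description. The BP178 arrays of Solyc09g057960, given above, all lay above its NTC. The lectin kinase Solyc09g005000 was well above the array medians in every group, with a log2 FC of 1.05 after flg15 and of 0.76 ± 0.20 after SA (adjusted p = 0.014), short of the fold threshold.

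**Figure D5:**
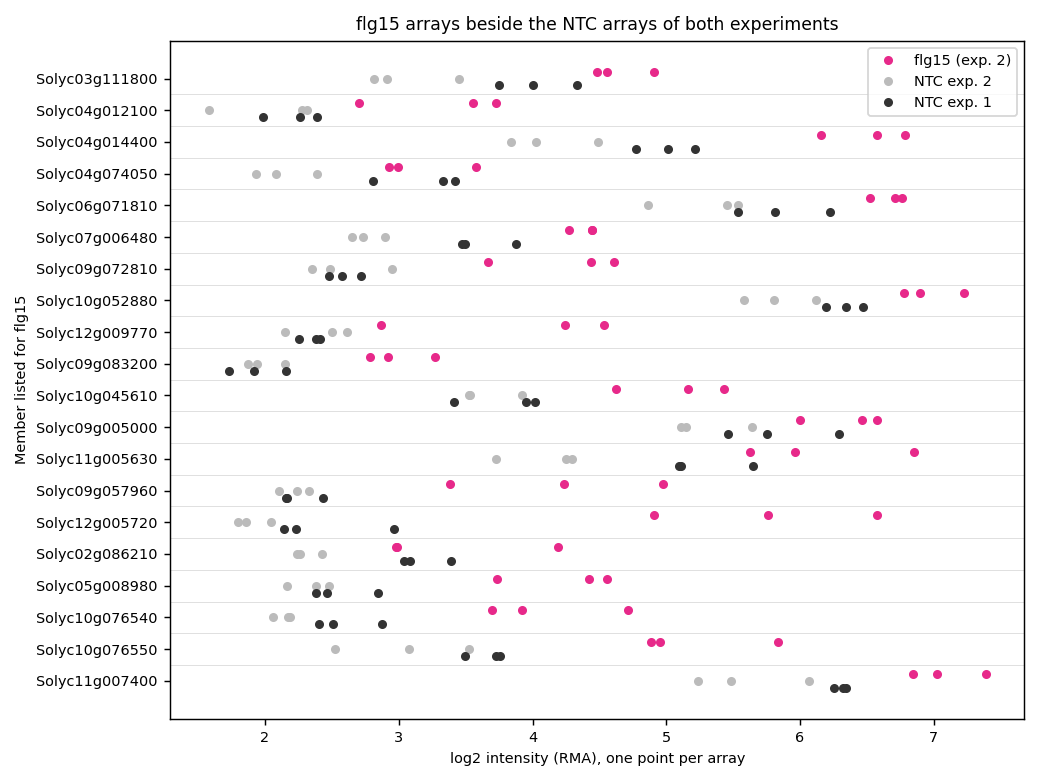
Log2 intensity (horizontal axis) of the 20 members listed for flg15 (rows), 1 point per array, for flg15 and for the NTC of experiment 2 and experiment 1. In 16 rows all flg15 points lie right of all NTC points of experiment 1, and in 17 the NTC of experiment 2 averages left of that of experiment 1.

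Genes around these receptors were read from lists of tomato symbols. Of 20 pattern receptors and related receptor-like proteins 4 had a probe set outside the members. After SA 2 of the 4 were higher and 1 lower, after ethylene 1 was higher, and after BP178, flg15 and JA 0 were called. Among probe sets with 1 gene symbol 5.32% were higher and 5.27% lower after SA, and 2.79% higher after ethylene. After BP178, flg15 and JA 0.246%, 0.474% and 3.9% were higher, so 0 calls say little about 4 probe sets. Eix1, a receptor-like protein for a fungal xylanase, had log2 FC of 2.60 ± 0.42 after ethylene (adjusted p = 0.00046) and 1.80 ± 0.42 after SA (adjusted p = 0.0057), and −2.41 ± 0.42 for JA over ethylene (adjusted p = 0.00065). Bti9, a lysM receptor-like kinase, rose after SA by a log2 FC of 1.10 ± 0.11 (adjusted p = 6.2e-07), and Ve2, a receptor-like protein, fell by 1.04 ± 0.27 (adjusted p = 0.014). Of 7 co-receptor symbols 3 were matched. Of these 1 was lower after SA, and after JA 1 was higher and 1 lower. After JA 4.04% of probe sets with 1 gene symbol were lower. SERK1 fell after SA (by 1.02 ± 0.23, adjusted p = 0.0046) and after JA (by 1.05 ± 0.23, adjusted p = 0.0046), while SERK3B rose after JA (1.01 ± 0.21, adjusted p = 0.0031). Both are LRR kinases that pair with ligand-binding receptors.

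Of 19 symbols of the cytoplasmic relay behind such receptors 8 were matched, by 10 probe sets. After SA 2 of the 10 were higher, after JA 1, after ethylene 2, and after BP178 and flg15 0, with 0 lower in any of these. Among probe sets with 1 gene symbol 5.32% were higher after SA, 3.9% after JA, 2.79% after ethylene, 0.246% after BP178 and 0.474% after flg15, so that 0 calls after the peptides say little about so short a list. MKK2, a kinase of the MAP kinase cascade, rose after SA (log2 FC 1.86 ± 0.17, adjusted p = 8.8e-08), and MKK4 rose after JA (2.12 ± 0.17, adjusted p = 5.9e-08) and after ethylene (1.40 ± 0.17, adjusted p = 2.5e-05). TPK1b, a receptor-like cytoplasmic kinase, rose after ethylene (1.37 ± 0.21, adjusted p = 0.00033). Wfi1, a respiratory burst oxidase, rose after SA (1.11 ± 0.15, adjusted p = 1.9e-05). Its log2 FC after flg15 (0.92 ± 0.15, adjusted p = 0.0036) and after JA (0.81 ± 0.15, adjusted p = 0.0009) stayed short of the fold threshold. These lists cover only genes that carry a symbol in the annotation of the array.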

How the data were processed

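Leaf RNA was hybridised to GeneChip Tomato Gene ST arrays. The deposited values are log2 intensities that the authors background-corrected, normalized and summarized by RMA. The version of the software and the genome build are not given in the sources used here. Coordinates are therefore left out. All 67795 probe sets were fitted in R 4.3.3 with limma 3.58.1, 1 mean per group over 21 arrays, and p-values were two-sided, moderated and adjusted by Benjamini-Hochberg over all probe sets. With 3 pooled samples per group, p-values rest on the spread between pools, estimated for each probe set over all 7 groups. The SE of a member is thus the same after every treatment and does not follow the spread of a single group. Arrays hold no read depth, and their number limits the precision.

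Identifiers and annotation words came from the study's supplementary list, and none of its values was used. Of the 30 members, 24 had a symbol in the annotation of the array, all 24 in RefSeq. Members and gene lists were chosen with earlier results of these data known. Values of each array are given for FLS2-like, SOBIR1-like, lysM and BP178-listed members, for up to 4 called members with the largest log2 FC per independent comparison, and for members called in opposite directions. Further members were added after their values were seen, to show the spread of each family. The symbol fer was left out because in tomato it names an iron regulator. Comparisons with other receptor kinases by description and of promoters were not run, since the tables used hold neither. The fit was tested on simulated data. Alternatives were quantile normalization, median centring, no dim probe sets, each experiment alone, a trended robust prior, array weights, a replicate block, both NTC groups together, other thresholds, and leaving out each array.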

Additional observations from a re-analysis of the deposited data

How the results depend on the processing

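Settings were compared for 25 calls of single members, each in a comparison whose arrays did not list that member. Of these 25, 19 held in every setting, 20 with any 1 array left out, and 0 reversed. Calls after BP178 and flg15, and calls of SA-listed members other than in JA over ethylene, are outside the 25. Solyc11g005630 lost its call after JA with both NTC groups together, and Solyc10g076540 its call in SA over ethylene under quantile normalization, median centring, an adjusted p below 0.01, and without replicate 2 or 3 of SA or of ethylene. In SA over JA, Solyc04g014400 was lost without replicate 3 of SA or of JA, and Solyc06g071810 without JA replicate 1. Counts of members listed for flg15, against NTC, moved as follows. With no minimum FC, 9 were higher and 1 lower after SA, and 3 were higher and 4 lower after JA. With both NTC groups together, 9 were higher after SA, 2 higher and 2 lower after JA, and 2 higher after ethylene. Shares of all probe sets were not counted under these settings. At an adjusted p below 0.01, 1 was higher after BP178. With each experiment fitted alone, 1 member listed for SA was higher after flg15, and with no minimum FC, 3 members were higher in JA than in ethylene. The cause of these shifts was not tested.

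With 1 array left out, members listed for flg15 and higher after SA numbered 7 to 8, higher after JA 0 to 2, lower after JA 3 to 4, and higher after BP178 1 to 2. The count after JA was 2 without JA replicate 1 or NTC replicate 1 of experiment 1. Members listed for SA and higher after flg15 stayed at 3, and members lower in JA than in ethylene numbered 6 to 7. In SA over JA 9 to 10 were higher and 0 to 1 lower, and in SA over ethylene 5 to 6 were higher.

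With the replicate number as a block, every count of members stayed as given, with 7 higher after SA, 3 lower after JA and 6 lower in JA than in ethylene. The labels do not say that a number marks a shared batch, and same-numbered arrays of different groups deviated together only weakly (median r = 0.0496, over 0.1 in 16 of 63 pairs), although 14 of 21 arrays correlated best with their own number. Signal near the array medians limits the fold of 12 members.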
